A study of Mus musculus with 768 samples.

Results

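Hormone-sensing luminal cells of the mouse mammary gland were described here as a set of single cells chosen by their receptor genes. A cell was a member if it held at least 3 of 7 genes (Prlr, Foxa1, Wnt4, Pgr, Esr1, Cited1 and Areg) at 10 CPM or more, where CPM are the reads of a gene in 1000000 reads of that cell. It also had to hold fewer than 3 of 5 leukocyte genes (Ptprc, Cd53, Arhgdib, Coro1a and Laptm5) at 20 CPM or more. The rule found 78 members among 617 kept cells, 71 in the control plate (21.3% of its kept cells) and 7 in the N1ICD-EGFP plate (2.47%). They are set beside the other Krt8-positive cells of the same plate, which are kept cells outside the rule with the luminal keratin Krt8 at 10 CPM or more and the same leukocyte condition (433 cells, 230 of them in the control plate).

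The cells came from inguinal glands of C57BL/6 mice and were sorted into 2 plates of 384 wells for Smart-Seq2, a full-length protocol that makes 1 library from each cell. Every mouse carried WAP-CRE, a Cre recombinase driven by the promoter of the milk gene Wap, with 3 to 4 months of lactation before collection per the labels. Control mice were WAP-CRE; R26-tdTomato, in which Cre turns on a red reporter at the Rosa26 locus, and the other mice were WAP-CRE; R26-N1ICD-EGFP, in which it turns on the active intracellular part of Notch1 together with EGFP. Reporter-positive cells of each genotype filled 1 plate. How any cells of other origin entered the plates was not tested, and the labels name no animal behind any well. A plate is thus 1 sample of its genotype, nothing below carries a test, and the effect of genotype cannot be told apart from that of the plate or of the reporter. Higher and lower refer to size alone.

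Hormone-sensing luminal cells are the mammary epithelial cells that carry receptors for estrogen, progesterone and prolactin. In this tissue they are known for passing the ovarian signal on to receptor-negative neighbours through secreted ligands, among them amphiregulin, Wnt4 and Rank ligand. The neighbouring luminal progenitor and alveolar cells divide in answer to such ligands and make milk under prolactin, and Notch signalling is known as a regulator of the choice between both luminal fates.

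Kept cells held 50048 to 615615 reads. Members were read more deeply than the other Krt8-positive cells, with a median of 313835 against 221108.5 reads in the control plate and 417390 against 352662 in the N1ICD-EGFP plate. They also held more genes, and after every cell was thinned to 50000 reads the medians were 4465 against 2984.5 genes (control) and 3796 against 2119 (N1ICD-EGFP). All 78 members held the luminal genes Krt18 and Epcam at 10 CPM or more, and 77 held Krt8. Markers of other cell types were low in most members. Of 13 leukocyte markers, 12 summed to 7.46 CPM in control members (0 to 330.9 per cell, with Cd3g, Cd79a and Ms4a1 at 0). They summed to 0 in N1ICD-EGFP members. In cells that failed the leukocyte condition, called leukocyte-rule cells below, they summed to 16929 CPM (control) and 23395 CPM (N1ICD-EGFP). The 12 include the 5 genes of the leukocyte condition. Those 5 limited the members and chose the leukocyte-rule cells, so this contrast was in part set by the rule. The 13th, the actin-bundling gene Lcp1, was read at 309.1 CPM in control and 266.96 CPM in N1ICD-EGFP members and at 32.5 and 32.3 CPM in the other Krt8-positive cells. The 9 basal markers summed to 49.04 CPM (0 to 1067 per cell, all 9 read) and 36.7 CPM (0 to 148.2, with Acta2, Mylk, Tagln and Cnn1 at 0). The 6 fibroblast markers summed to 48.9 CPM (0 to 1508, Col3a1 at 0) and 39.99 CPM (0 to 183.9, all but Dcn at 0). The 5 endothelial and pericyte markers summed to 7.04 CPM (0 to 1831, Emcn at 0) and 1.08 CPM (0 to 44.5, all but Pecam1 at 0).

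The exception was a group of 8 control members. These 8 held at least 4 of 9 luminal progenitor and secretory markers (Kit, Elf5, Aldh1a3, Cd14, Ltf, Csn1s1, Csn1s2a, Csn2 and Csn3) at 100 CPM or more, as did 96.5% of the other Krt8-positive control cells and 62.1% of those in the N1ICD-EGFP plate. Their 9 markers summed to 33444 CPM, against 194.9 CPM in the remaining 63 control members and 46423 CPM in the other Krt8-positive cells. None of the 7 N1ICD-EGFP members was of this kind, and their 9 markers summed to 33.9 CPM. All 3 control members with exactly 3 rule genes belonged to these 8 cells, which are called mixed members below. Prlr in the 8 was 10.98, 14.6, 15.1, 84.7, 1038, 1731, 3462 and 12900.5 CPM. The 4 with the lowest Prlr held 59027 to 199147 reads, no Foxa1 read and 5 to 9 of the 9 markers. At the depths of 3 of them (59027, 68269 and 91092 reads) 1 read passes 10 CPM. The cell with 68269 reads held no Krt8 read. Prlr in the remaining 63 control members had a median of 9246 CPM. A mixed member may be 1 cell with both programmes or a well with RNA of more than 1 cell. It may also be a progenitor or secretory cell that passed the rule on few reads. Which of these holds was not tested. Each list of genes below was also computed without them, which moved no count of list members past 2 times by more than 1 unless a second value is given, and single genes are given without them where they carry the value.

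**Figure D1:**
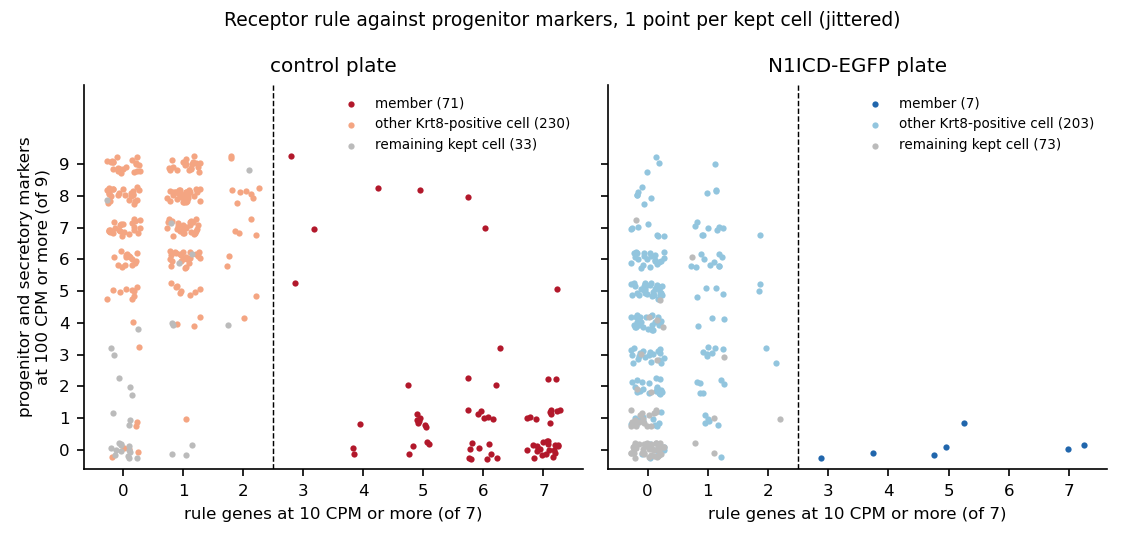
Number of the 7 rule genes at 10 CPM or more (x axis) against the number of 9 progenitor and secretory markers at 100 CPM or more (y axis), with 1 jittered point per kept cell, for the control plate (left) and the N1ICD-EGFP plate (right). The dashed line marks the rule. Right of it, 63 of 71 control members and all 7 N1ICD-EGFP members lie below 4 markers, and 8 control members lie at 4 or above.

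Few cells lay near the threshold of the rule. In the control plate 37.4% of kept cells held none of the 7 genes, 35.6% held 1 and 5.69% (19 cells) held 2, while only 3 cells held 3 and 4 cells held 4. Numbers then went up to 13 cells with 5 genes, 20 with 6 and 31 with all 7. Just outside the rule, the 18 control cells with 2 rule genes and no leukocyte call had a median of 102.7 CPM of Prlr (0 to 847.8) and of 0 CPM of each other rule gene, and all 18 held 4 or more progenitor and secretory markers. Just inside it, the 3 cells with 3 rule genes had between 14.6 and 84.7 CPM of Prlr and no Foxa1 read. The N1ICD-EGFP plate had 76.7% of its kept cells with none, 53 cells with 1 and 6 with 2 of the genes, and its 7 members held 3, 4, 5, 5, 5, 7 and 7 of them. These numbers and the levels of the 7 genes chose the members, so they are given as a description.

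Receptors came first among the 7 genes. Prlr, the prolactin receptor (RefSeq GRCm38.p6, the assembly behind mm10, chromosome 15, 10177238 to 10349190), was read at 10.98 to 20653 CPM over control members, with a median of 9021. Summed over cells it came to 9605 CPM in control members and 111.5 CPM in the others, and the N1ICD-EGFP values were 5097 and 40.2 CPM. The 7 N1ICD-EGFP members held 3910.3 to 6545 CPM (median 5212), above every other Krt8-positive cell of the plate, whose highest value was 909.7. Control groups overlapped: 4 mixed members lay below 100 CPM, 46.5% of the other cells held 10 CPM or more, and the highest of them held 1943 CPM. All 63 control members that were not mixed held 1000 CPM or more. Pgr, the progesterone receptor (chromosome 9, 8898900 to 8968611), had a median of 338.2 CPM and a highest value of 2354 in control members and a median of 263.2 CPM in N1ICD-EGFP members, with 67 of 71 and 5 of 7 cells at 10 CPM or more. Esr1, the estrogen receptor alpha (chromosome 10, 4611989 to 5005633), was the rule gene seen in the fewest members, 43 of 71 in the control and 4 of 7 in the N1ICD-EGFP plate, with medians of 26.6 and 17.9 CPM. After thinning, Esr1 was read in 59.2% of control members, 4.78% of the others and 4.17% of the 24 leukocyte-rule cells. Whether the latter lack the gene was not tested, and 11 of them held Epcam at 10 CPM or more. Their share is thus no background for the other luminal cells.

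Foxa1, a pioneer factor that opens chromatin for the estrogen receptor (chromosome 12, 57540628 to 57548029), was read at a median of 373.2 CPM in control members (64 of 71 at 10 CPM or more) and 241.98 CPM in N1ICD-EGFP members (6 of 7). No read of Foxa1 was found in the other Krt8-positive N1ICD-EGFP cells, so the summed 382.6 CPM of members was at least 8926-fold higher, taking 3 reads over that group as the floor. Cited1, a co-activator that binds the estrogen receptor (chromosome X, 102247378 to 102252181), had medians of 149.6 and 155.1 CPM and was at 10 CPM in 2 other control cells and in no other N1ICD-EGFP cell. The 2 ligands of the rule showed different levels by plate. Areg, the EGF-family ligand amphiregulin (chromosome 5, 91139599 to 91148432), summed to 1656 CPM in control members (56 of 71 cells at 10 CPM or more) and 2164 CPM in N1ICD-EGFP members (5 of 7), with medians of 1043 and 568 CPM. A single N1ICD-EGFP cell held 82.3% of the reads of Areg in its group, and the sum over the other 6 was 488 CPM, below that of control members. Wnt4, the Wnt ligand known as a target of progesterone (chromosome 4, 137277635 to 137299501), summed to 380.5 CPM in control members but 98.4 CPM in N1ICD-EGFP members, where 4 of 7 cells held 10 CPM or more against 67 of 71.

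**Figure D2:**
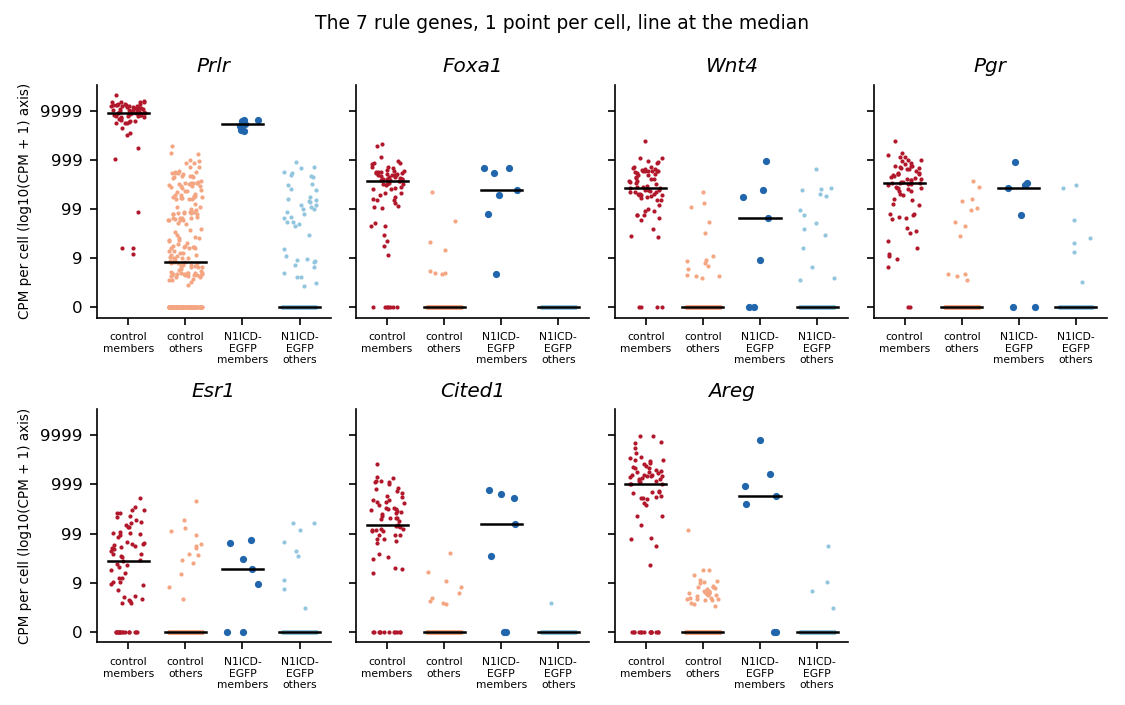
CPM per cell of the 7 rule genes on a log10(CPM + 1) axis, for members and other Krt8-positive cells of both plates, with 1 point per cell and a line at the median. Prlr of the 7 N1ICD-EGFP members lies between 3910.3 and 6545 CPM, and the medians of the other 6 genes are 0 in the other cells of both plates.

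The promoters of Prlr and Areg are shown because both hold TGGGAA, the core letters bound by RBPJ, through which Notch acts on its targets. Each is the 250 bases before the RefSeq start in GRCm38.p6, written 5′ to 3′ on the strand of the gene, with matches of TGGGAA on either strand in capitals. Prlr lies at chr15:10176988-10177237 (plus strand) and Areg at chr5:91139349-91139598 (plus strand).
Prlr: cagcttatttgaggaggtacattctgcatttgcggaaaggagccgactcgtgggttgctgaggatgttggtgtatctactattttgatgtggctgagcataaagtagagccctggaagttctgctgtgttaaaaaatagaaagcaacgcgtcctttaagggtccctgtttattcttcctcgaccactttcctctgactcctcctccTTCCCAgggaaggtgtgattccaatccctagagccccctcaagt
Areg: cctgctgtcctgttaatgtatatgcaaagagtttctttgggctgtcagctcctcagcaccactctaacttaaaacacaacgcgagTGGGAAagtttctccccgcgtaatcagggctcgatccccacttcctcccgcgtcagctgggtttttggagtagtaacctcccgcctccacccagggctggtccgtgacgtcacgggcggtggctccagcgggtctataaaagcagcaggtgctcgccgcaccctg
Among 27025 mouse promoters of the same length 21.5% hold TGGGAA, against these 2 of the 7 rule genes. A motif of FOX factors (TGTTTAC, 3.06% of promoters) was in Foxa1 alone of the 7. The windows searched for Foxa1 (chr12:57546112-57546361) and Pgr (chr9:8899583-8899832) lie inside the gene spans given above, not before their outer start. Counts over the 7 rule genes thus mix unlike windows. A core element of nuclear receptors (AGGTCA, 13.8% of promoters), a core element of steroid receptors (AGAACA, 16.1%), a STAT motif (TTCNNNGAA, 7.14%) and a GATA motif (AGATAA, 10.2%) were in none of the 7, and an AP-2 motif (GCCNNNGGC, 13.5%) was in Wnt4 and Esr1. All 7 motifs were searched on both strands, and the match in each sequence shown overlaps no other of them. A match describes letters only, and a motif not found says nothing about the factor.

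Members made up 21.3% of kept control cells (Clopper-Pearson 95% interval 16.99 to 26.04) and 2.47% of kept N1ICD-EGFP cells (1.0001 to 5.03). Intervals here and below cover counting error only and no spread between animals. The libraries carry no molecular identifiers, so intervals on reads may be too narrow even for counting error. Without the mixed members the control share was 18.9% (14.8 to 23.5). Without possible doublets, taken as cells whose gene number exceeds the plate median by more than 3 median absolute deviations, it was 11.9%, and it was 1.56% in the N1ICD-EGFP plate. That cutoff falls on members more than on others, which hold fewer genes at equal depth. Within the control plate the share was 21.7% in well columns 1 to 12 and 20.8% in columns 13 to 24. In the N1ICD-EGFP plate 6 of the 7 members lay in columns 1 to 12 (4.17% of cells) and 1 in columns 13 to 24 (0.719%). These are shares of sorted, reporter-positive cells that passed a depth filter, so they are not shares of the gland.

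The reporter row eGFP held no read in the 7 N1ICD-EGFP members, and 0 of 7 cells allows a share of up to 42.9% with 3 cells as the floor (Clopper-Pearson upper limit 40.96%). Among the other Krt8-positive cells of that plate 87 held an eGFP read (42.9%, 35.95 to 49.97), and 76 of them held 5 or more. In the control plate, whose genotype has no EGFP, 6 of 71 members held 1 read and 47 of 230 other cells held 1 or 2, which is the background of this row. The interval of the 7 members, 0 to 40.96%, overlaps that of the others. Overlap does not show that the shares are alike, and whether they differ was not tested. The non-coding transcript of the Rosa26 locus, Gt(ROSA)26Sor, chosen after its values were seen, was lower in members than in others in both plates (16.9, or 10.8 without the mixed members, against 101.995 CPM in the control and 1.08 against 10.3 CPM in the N1ICD-EGFP plate).

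Across all genes at 20 CPM or more in either group, 14.6% of 8618 genes were at least 2 times higher in control members than in the other Krt8-positive cells and 16.6% were at least 2 times lower. The N1ICD-EGFP plate gave 20.9% higher and 32.8% lower of 8848 genes, from sums over 7 member cells. Median log2 ratios over these genes were 0.04 and -0.12. All log2 ratios are of summed CPM plus a pseudocount of 1 CPM, and folds are plain ratios of summed CPM. Because the rule chose the same cells on which the ratios were computed, the shares are a scale for the lists below and nothing is read from them. The lists were chosen with earlier results of these cells known and are described by counts. Their medians were also taken from plain ratios with a gene at 0 in a group set to the floor of 3 reads, and this floored median is added where it stands clearly apart. Ratios of the N1ICD-EGFP plate rest on 7 member cells. Of the named ratios past 2 times 68.6% stayed past it in every setting tried there, and 89.6% in the control plate. Only the N1ICD-EGFP plate had settings that left out each member in turn, so the 2 shares are over unlike settings. The ratios of Egfr, Id2, Krt8, Krt19, Notch3, Nrarp, Sox9, Cd55, Fos and Egr1 in the N1ICD-EGFP plate were within 2 times with 2 or more rule genes. Where 1 of the 7 cells carried much of a sum, the sum over the other 6 is added as the value without 1 cell. Of the genes past 2 times in the control plate, 700 of 1256 higher (55.7%) and 941 of 1427 lower genes (65.9%) were also past it in the N1ICD-EGFP plate, where they were 37.9% and 32.5% of the respective lists.

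Other hormone receptors are set beside the shares over all genes, 14.6% higher and 16.6% lower (control) and 20.9% and 32.8% (N1ICD-EGFP). With 11 genes tested, 1 higher gene is not read as a trait of the receptors. Of 16 receptors outside the rule 11 reached 20 CPM in the control plate, and 1 was at least 2 times higher and 5 were lower in members (median log2 ratio -0.70). The N1ICD-EGFP plate gave 1 higher and 8 lower of 11 (-1.89, floored median -2.00). The single higher gene in both was Agtr1a, the type 1 angiotensin II receptor. It was read at a median of 1451 CPM in control members (highest 6346) and 385 to 3813 CPM in the 7 N1ICD-EGFP members, which put all 7 above the highest of the other cells (90.3). The sums were 260.4-fold (235.1 to 289.2) higher than in the others in the control and 2494-fold (1842 to 3465) in the N1ICD-EGFP plate, where the intervals are of counting error. Igf1r, the receptor of the growth factor IGF1, lay on the other side, at 4.51 against 127.4 CPM in the control plate and 0 against 131.4 CPM in the N1ICD-EGFP plate. Without the mixed members the control sum of Igf1r was 0.244 CPM. The growth hormone receptor Ghr (19.1, or 11.8 without the mixed members, against 102.4 CPM), the glucocorticoid receptor Nr3c1 (39.3 against 175.3) and the vitamin D receptor Vdr (60.8 against 161.8) were lower in control members as well, the last by less than 2 times in some settings. The 5th lower gene was Oxtr, the oxytocin receptor, a basal gene in this tissue (0.230 against 81.95 CPM). The insulin receptor Insr (123.5 and 146.2 CPM) and the mineralocorticoid receptor Nr3c2 (48.5 and 28.6 CPM) differed by less than 2 times.

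About as many transcription factors of this lineage were higher as were within 2 times. Of 15 on the list 13 reached 20 CPM in the control plate, 6 at least 2 times higher and 1 lower (median log2 ratio 0.73), and the N1ICD-EGFP plate gave 7 higher and 1 lower of 13 (1.33). The homeobox gene Msx2 had a median of 187.2 CPM in control members, with 61 of 71 cells at 10 CPM or more and none of the 230 others. In the N1ICD-EGFP plate it held 7.63 to 237.1 CPM in the 7 members and no read in the other cells. Tfap2b, an AP-2 factor, was 26.2-fold higher in control members (240.9 against 9.20 CPM) and 8.97-fold higher in N1ICD-EGFP members (323.9 against 36.1). Its relative Tfap2c, which is used in luminal cells more widely, went the other way at 3.82 against 113.01 CPM in the control plate, with 0.391 CPM in members that were not mixed. The T-box factor Tbx3 was 9.14-fold higher (134.7 CPM in control members), the proto-oncogene Myb 6.29-fold (66.2 CPM) and the Ets factor Spdef 19.2-fold (55.8 CPM). Batf, a factor of the AP-1 family, was the 6th (24.96 against 9.98 CPM, under 2 times with a pseudocount of 5 CPM). Spdef was read in 1 of 7 N1ICD-EGFP members, and its ratio there turned to lower in some settings. Gata3, a factor that all luminal cells need, was read at 681 against 528 CPM in the control and 849 against 580.1 CPM in the N1ICD-EGFP plate, less than 2 times apart in both. Of 14 co-regulators of steroid receptors 13 reached 20 CPM in each plate, with 0 higher and 2 lower in control members (median -0.40) and 1 higher and 4 lower in N1ICD-EGFP members (-0.11). The lower pair in the control plate was Ncoa3, a receptor co-activator (40.4 against 97.1 CPM), and Fkbp5, a chaperone partner of the glucocorticoid receptor (29.1 against 96.4 CPM).

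Of 12 genes known to answer estrogen or progesterone 6 reached 20 CPM in each plate. In control members 1 was higher and 4 were lower (median log2 ratio -1.52), and in N1ICD-EGFP members 2 were higher and 4 lower (-1.56, which turned to 0.55 with 2 or more rule genes and to 0.0075 as a mean of per-cell CPM). The median without the mixed control members was -2.11. Stc2, the secreted glycoprotein stanniocalcin 2, was higher in both plates. Its median was 185.8 CPM in control and 393 CPM in N1ICD-EGFP members, and its sums were 445 against 1.22 CPM and 991 (409 without 1 cell) against 0.0286 CPM. Greb1, a classic estrogen target, was near the limit of detection, with 5 of 71 control and 3 of 7 N1ICD-EGFP members at 10 CPM or more. The lower genes included Myc (15.9, or 10.5 without the mixed members, against 132.98 CPM in the control plate) and the cyclin Ccnd1 (184.3 against 446 CPM), which also serve growth signals other than hormones. The ratio of Ccnd1 was under 2 times in some settings.

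Ligands that pass signals to neighbouring cells were split. The shares over all genes were 14.6% higher and 16.6% lower (control plate) and 20.9% and 32.8% (N1ICD-EGFP plate). Of 13 paracrine ligands outside the rule 5 reached 20 CPM in the control plate, 2 higher and 2 lower in members (median log2 ratio -0.38), and 8 in the N1ICD-EGFP plate, 4 higher and 3 lower (2.47, floored median 2.58, and -0.036 with 2 or more rule genes). Wnt5a, a Wnt ligand that mostly acts without beta-catenin, was 52.2-fold higher in control members, with a median of 139.7 CPM over cells and 48 of 71 at 10 CPM or more against 9 of 230. It was 29.6-fold higher in N1ICD-EGFP members, 5 of 7 at 10 CPM or more. The related Wnt5b lay on the other side, at 5.76 CPM in control members (1.08 without the mixed ones) against 219.004 CPM in the others, and 0.360 against 203.4 CPM in the N1ICD-EGFP plate. The 2 ligands thus lay on opposite sides in both plates. Bmp3, a ligand of the BMP family, reached 10 CPM in 20 control members and 4 N1ICD-EGFP members, and in 1 cell of each group of others. Tnfsf11, which encodes Rank ligand, was read at 10 CPM or more in only 2 of 71 control and 1 of 7 N1ICD-EGFP members, at up to 263.9 and 282.3 CPM. No read of it was found in the 433 other Krt8-positive cells of both plates, while 8.33% of the 24 control leukocyte-rule cells held one after thinning. Its receptor Tnfrsf11a was lower in members, at 0.599 against 30.2 CPM in the control plate and 0 against 27.3 in the N1ICD-EGFP plate.

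Genes of the EGF family lay on both sides. So did all tested genes, with 14.6% higher and 16.6% lower in the control plate and 20.9% and 32.8% in the N1ICD-EGFP plate. The split is thus not read as a trait of the family. Of 15 genes 8 reached 20 CPM in the control plate, 3 higher and 2 lower in members (median log2 ratio 0.45), and 9 in the N1ICD-EGFP plate, 3 higher and 3 lower (0.34). Besides Areg, the ligands Tgfa (49.4 against 2.12 CPM) and Nrg4 (40.9 against 0.344 CPM) were higher in control members, where 24 and 32 of 71 cells held 10 CPM or more. Both were higher in the N1ICD-EGFP plate too, but turned to lower there without possible doublets. Btc, the ligand betacellulin, was lower (4.19 against 24.3 CPM in the control plate, within 2 times with the rule at 2 or more genes). Adam10, a membrane protease that releases several EGF-family ligands and cleaves Notch receptors, was 8.11-fold higher in control members (median 666 CPM) and 10.7-fold higher in N1ICD-EGFP members, which held 956 to 1737 CPM. Adam17, the protease known to release amphiregulin, was at 79.1 and 77.1 CPM in the control plate. Egfr, the receptor of amphiregulin, was at 3.73 CPM in control members (0.440 without the mixed ones) against 83.1 CPM in the others, with no read in the 7 N1ICD-EGFP members against 153.5 CPM. Erbb2 and Erbb3, which serve as receptor partners for other ligands of the family, differed by less than 2 times in both plates, although leaving out 1 N1ICD-EGFP member gave log2 ratios there of -1.47 to -0.55 (Erbb2) and -0.62 to 1.04 (Erbb3) (147.7 against 113.9 and 141.5 against 98.04 CPM in the control).

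Wnt reception was also uneven, beside 14.6% higher and 16.6% lower over all genes in the control plate. In the N1ICD-EGFP plate these shares were 20.9% and 32.8%. Of 19 Wnt and Rank signalling genes 13 reached 20 CPM in each plate, with 4 higher and 6 lower in control members (median log2 ratio -0.96) and 3 higher and 6 lower in N1ICD-EGFP members (-0.02). Porcn and Wls, which lipidate and export Wnt proteins, were 3.31-fold and 2.47-fold higher in control members (42.8 and 374.4 CPM). The Wnt receptors Fzd4 (32.6 against 0.134 CPM) and Fzd6 (81.2 against 30.3) were higher, and Fzd1 (16.7 against 53.8, within 2 times with the rule at 2 or more genes) and Fzd7 (13.5 against 56.7) were lower. Tcf7l2, a transcription factor at the end of the Wnt pathway, was 6.59-fold lower in control members (93.8 against 618 CPM).

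Among the lists plotted below, which leave out the rule genes, that of enzymes, transporters and surface proteins had the highest median ratio. Of 16 listed markers of hormone-sensing cells 14 reached 20 CPM in each plate, with 10 higher and 3 lower in control members (median log2 ratio 5.17) and 11 higher and 3 lower in N1ICD-EGFP members (4.62, floored median 5.23). Ido1, which starts the breakdown of tryptophan to kynurenine (chromosome 8, 24584133 to 24596952), had the highest ratio of all genes that met the naming rule in both plates. Over control members it ran from 0 to 14540.2 CPM with a median of 1606, and over the 7 N1ICD-EGFP members from 2.28 to 6983 with a median of 466. The sums were 2864 against 1.72 CPM and 1878 (1044 without 1 cell) against 0.129 CPM. After thinning it was read in 83.1% of control members, 6.09% of the others and 4.17% of leukocyte-rule cells, and the share without thinning was 85.9% in members. Tph1, the first enzyme of serotonin synthesis from the same amino acid, summed to 1266 CPM in control and 345.1 CPM in N1ICD-EGFP members (24.8 without 1 cell), but its medians were only 6.08 and 0 CPM. Its reads thus lay in a part of the cells. Cxcl15, a chemokine, had medians of 1312 and 1016 CPM, with 65 of 71 and 7 of 7 cells at 10 CPM or more and in 6 of 230 other control and 0 other N1ICD-EGFP cells.

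The surface proteins Prom1 and Ly6a are used to sort hormone-sensing cells. Prom1, also known as CD133, was read at a median of 290.7 CPM in control and 1159.8 CPM in N1ICD-EGFP members, and Ly6a, also known as Sca-1, at medians of 300.6 and 2504 CPM. All 7 N1ICD-EGFP members held both, at 192.6 CPM or more of Prom1 and 877 CPM or more of Ly6a, while 58 and 54 of 71 control members held 10 CPM. Ly6a is no marker of this lineage alone and was also read in 57.7% of the 52 N1ICD-EGFP leukocyte-rule cells after thinning. Tgm2, a transglutaminase, was 32.6-fold higher in control members (4819.7 against 147.8 CPM), and the mechanosensitive channel Piezo2 (258.4 against 1.03), the prostaglandin transporter Slco2a1 (409 against 12.5), the secreted protein Wfdc2 (1801 against 46.6) and the sodium pump subunit Fxyd2 (1264 against 4.82) were higher as well. Cryab, a small heat shock protein, Cd55, a complement regulator, and Mfge8, a protein of milk fat globules, were the 3 lower genes of the list in both plates. Mfge8 summed to 479.5 CPM in control members (117.2 without the mixed ones) against 10318 CPM, and every one of the 433 other cells held at least 22.01 CPM.

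**Figure D3:**
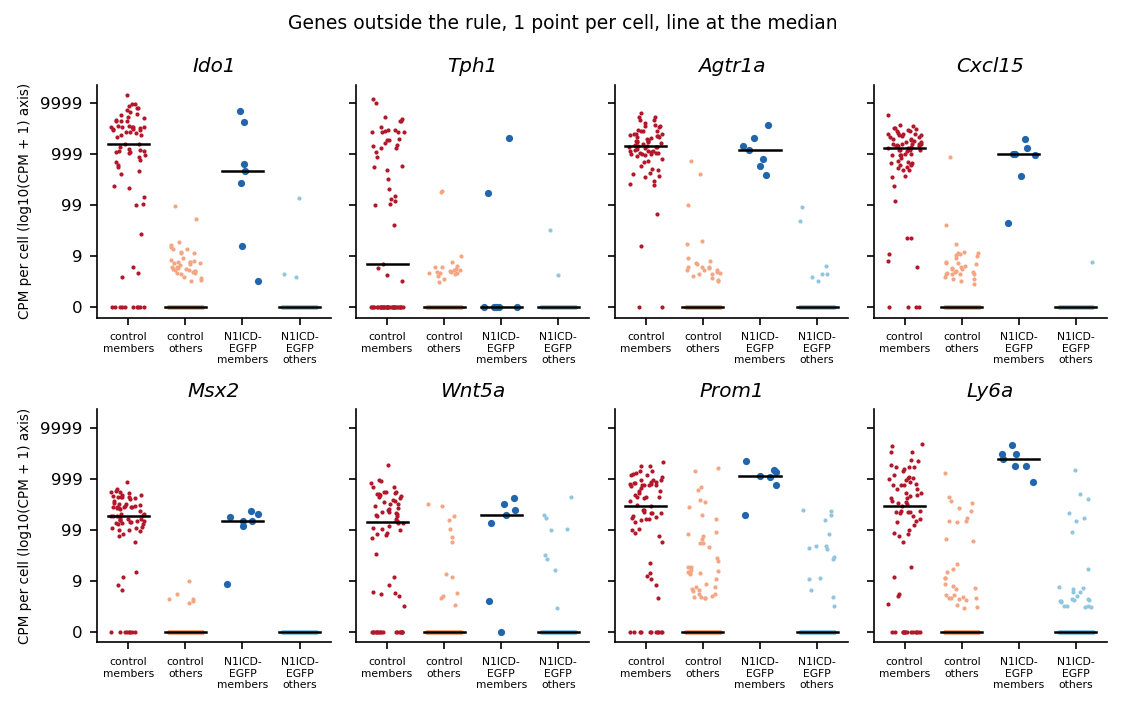
CPM per cell of 8 genes that the rule did not use, on a log10(CPM + 1) axis, for members and other Krt8-positive cells of both plates, with 1 point per cell and a line at the median. Medians are 0 in the other cells for all 8 genes, the 7 N1ICD-EGFP members lie above 100 CPM for Prom1 and Ly6a, and Tph1 spreads from 0 to 12224 CPM over control members.

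By the naming rule the 15 genes with the highest ratios in the control plate, among those read in at least 50% of members after thinning, were Ido1, Areg, Olfm4, Cdo1, Tspan1, Cxcl15, Gipc2, Tph1, Col8a1, Cyp3a57, Mtmr7, Aoc1, Cited1, AW112010 and Slc7a2. AW112010, a non-coding transcript, was also read in 87.5% of the 24 leukocyte-rule cells after thinning. The log2 ratios lay between 7.98 (Slc7a2) and 10.04 (Ido1). Several handle amino acids or amines: Cdo1, the cysteine dioxygenase (1473 against 1.63 CPM), Aoc1, the diamine oxidase (1151 against 3.08), and Slc7a2, a carrier of arginine and lysine (1555 against 5.18). Col8a1, a chain of collagen VIII, was at 692 against 0.536 CPM and the tetraspanin Tspan1 at 1283 against 1.36 CPM. In the N1ICD-EGFP plate the 8 highest genes were Ido1, Areg, Fxyd2, Stc2, Agtr1a, Slc5a5, Cxcl15 and Tspan13. Slc5a5, the sodium iodide transporter that loads iodide into milk, was read at 710.1 to 3419.9 CPM in the 7 members against at most 97.9 CPM in the others, and in the control plate at 916 against 2.77 CPM. The tetraspanin Tspan13 was likewise above every other cell, at 762 CPM or more against at most 108.1.

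The 63 control members that were not mixed differed among themselves. Prlr, Wnt4, Foxa1 and Pgr were close to constant as calls, at 10 CPM or more in 63, 62, 60 and 60 cells, while Cited1 was in 55, Areg in 53 and Esr1 in 37. Calls of these same genes at 10 CPM chose the members, so these numbers of cells were in part set by the rule. They are given as a description. Esr1 had no read in 14 of the 63. Tph1 was divided, with no read in 25 cells and 1000 CPM or more in 22. Olfm4, a secreted glycoprotein, had no read in 20 cells and 1000 CPM or more in 14, with a highest value of 20595 CPM. Ido1 was at 1000 CPM or more in 42. Cells with Tph1 at 10 CPM or more had a median depth of 349084.5 reads and cells under it 312792, and for Olfm4 these were 337307.5 and 318263 reads. Over the same 63 cells the levels of the rule genes were only weakly related, with Spearman coefficients between -0.28 (Foxa1 and Esr1) and 0.31 (Foxa1 and Pgr). In counts this sparse such values are no finding.

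Genes below the prolactin receptor lay on both sides. Among all tested genes 14.6% were higher and 16.6% lower in the control plate, and 20.9% and 32.8% in the N1ICD-EGFP plate. Of 10 genes of the JAK and STAT5 pathway 9 reached 20 CPM in each plate, with 2 higher and 2 lower in control members (median log2 ratio 0.68) and 4 higher and 3 lower in N1ICD-EGFP members (-0.14). Jak2, the kinase bound to the receptor, was 2.51-fold higher in control members (179.4 against 71.4 CPM) and 5.24-fold higher in N1ICD-EGFP members (185.2 CPM, 74.1 without 1 cell). Socs2, an inhibitor that STAT5 induces, was 6.22-fold and 5.46-fold higher, with a median of 176.2 CPM over control and 143.8 CPM over N1ICD-EGFP members. Stat5a itself (280.03 against 166.7 CPM) and Stat5b (94.2 against 135.1 CPM) differed by less than 2 times in the control plate. Elf5, the factor that drives alveolar fate under prolactin, was lower, at 34.5 CPM (18.9 without the mixed members) against 251.96 CPM, and it had no read in the 7 N1ICD-EGFP members against 166.6 CPM in the others. Id2, a partner of that fate, was lower too (42.3 against 442 CPM in the control and 139.4, or 86.6 without 1 cell, against 459.9 CPM in the N1ICD-EGFP plate).

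Milk protein genes were low throughout. All 9 of 12 that reached 20 CPM in the control plate were at least 2 times lower in members (median log2 ratio -4.59, and -6.98 without the mixed members), as were all 8 in the N1ICD-EGFP plate (-7.92, floored median -7.80). The casein Csn3 ran from 0 to 25216 CPM over control members with a median of 15.7. It summed to 794 CPM over all 71 and to 50.1 CPM over the 63 that were not mixed, against 14550.2 CPM in the other cells. After thinning it was read in 63.4% of control members and in 54.2% of the leukocyte-rule cells of the same plate, and Csn1s1 in 52.1% and 50%. Casein reads were thus found in members about as often as in those 24 leukocyte-rule cells. The latter are no clean background, since 11 of them held Epcam at 10 CPM or more and 5 held 4 or more progenitor and secretory markers. N1ICD-EGFP members held at most 5.13 CPM of Csn3 and 1.66 CPM of Csn1s1, where the others of that plate reached 27552 and 23382. Lactoferrin, Ltf, was at 20.98 CPM in control members that were not mixed against 13455 CPM in the others.

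Luminal progenitor and alveolar genes showed the same side. Of 14 genes 13 reached 20 CPM in each plate, with 0 higher and 11 lower in control members (median -3.67, floored median -3.95, and -4.73 without the mixed members) and 1 higher and 12 lower in N1ICD-EGFP members (-6.36). Kit, the stem cell factor receptor, was at 1.03 CPM in control members that were not mixed (403 in the mixed ones) against 709 CPM in the others, and at 0.360 against 852 CPM in the N1ICD-EGFP plate. Sox10 had no read in N1ICD-EGFP members against 304.3 CPM, and 5.43 CPM in control members that were not mixed against 502. Sox9, which many luminal cells use, differed by less than 2 times in the control plate (251.2 against 419 CPM) and by 7.26-fold in the N1ICD-EGFP plate (72.4 against 525), and Elf3 was at 269.1 and 309.9 CPM in the control plate. By the naming rule the lowest control ratios were those of Csn2, Csn1s2a, Map2, Hey1, Atp6v1b1, Wnt5b, Muc4, Ntn1, Kit and Lgr6, and the lowest N1ICD-EGFP ratios those of Csn1s1, Csn3, Alox12e, Fads1, Kit and Wisp2. With 2 or more rule genes the ratios of Csn1s2a (control plate) and Alox12e (N1ICD-EGFP plate) were within 2 times.

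Shared luminal genes were the counterpart. All 13 pan-luminal genes reached 20 CPM in both plates, with 4 higher and 1 lower in control members (median 0.10, 5 higher without the mixed members) and 4 higher and 3 lower in N1ICD-EGFP members (0.27). The adhesion molecule Epcam was nearly equal, at 3688 against 3604 CPM and 3575 against 3159 CPM. Keratins were higher in members. Krt7 was 17.1-fold higher in the control plate (2030.4 against 118.8 CPM) and 6.84-fold in the N1ICD-EGFP plate, Krt19 2.71-fold and 2.54-fold, and Krt8 2.55-fold and 2.82-fold, although Krt8 at 10 CPM had chosen the comparison cells. Claudin 4, Cldn4, was 6.22-fold and 4.08-fold higher, while claudin 3, Cldn3, was at 357.1 against 600.2 CPM in the control plate. The 11 of 14 basal genes that reached 20 CPM in the control plate were all lower in members (median -4.08, floored median -4.43). Few of the other Krt8-positive cells held them: the smooth muscle actin Acta2 reached 15779 CPM in a cell of that group, whose median was 0.

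Genes of milk fat synthesis were divided, as were all tested genes. Of the latter 14.6% were higher and 16.6% lower in the control plate, and 20.9% and 32.8% in the N1ICD-EGFP plate. Of 18 genes 11 reached 20 CPM in each plate, 3 higher and 3 lower in control members (median log2 ratio 0.13) and 3 higher and 2 lower in N1ICD-EGFP members (0.32). Dgat2, which completes triglyceride synthesis, was 8.74-fold higher in control members (219.3 against 25.1 CPM) and 14.7-fold higher in N1ICD-EGFP members, and the desaturase Scd2 10.7-fold and 27.3-fold. Plin2, which coats lipid droplets, was 6.86-fold lower in the control plate (145.5 against 998 CPM) and 25.2-fold lower in the N1ICD-EGFP plate, where 1 of 7 cells held all its reads. Its control sum was 91.7 CPM without the mixed members. The fatty acid synthase Fasn was at 144.3 and 118.3 CPM in the control plate.

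The study turned on Notch1, so its pathway was read in members by role. Of 24 receptors, ligands and machinery genes 17 reached 20 CPM in the control plate, 2 higher and 5 lower in members (median log2 ratio -0.59), and 15 in the N1ICD-EGFP plate, 3 higher and 6 lower (-0.57). Notch1 had a median of 15.99 CPM in control members and 181.7 CPM in the others, and summed to 58.6 against 272.2 CPM. In the N1ICD-EGFP plate, where reads of an N1ICD transcript would fall on the same gene, Notch1 was read at 10 CPM or more in 2 of 7 members and 78.8% of the other cells. The 7 members held 445, 25.6 and, in 5 cells, 0 CPM, and the sums were 14.4 (3.69 without 1 cell) against 276.02 CPM. Notch2 was lower in members of both plates (10.8 against 79.6 and 22.7, or 7.99 without 1 cell, against 177.1 CPM). Notch3 differed little in the control plate (68.6 and 77.2 CPM) and was at 12.97 (4.61 without 1 cell) against 95.8 CPM in the N1ICD-EGFP plate. The ligand Jag1 was higher, at a median of 54.7 CPM in control members, 49 of 71 cells at 10 CPM or more against 12 of 230, and 15.9-fold in the sums. In the N1ICD-EGFP plate Jag1 was 2.64-fold higher, a ratio that was under 2 times in some settings. Psen2, a catalytic subunit of the protease that frees the active domain of Notch, was 8.14-fold and 6.60-fold higher (145.9 CPM in N1ICD-EGFP members, 81.7 without 1 cell).

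More target genes of Notch were lower than higher in members. Of 15 listed 10 reached 20 CPM in each plate, with 2 higher and 5 lower in control members (median log2 ratio -1.10) and 1 higher and 7 lower in N1ICD-EGFP members (-2.25). The repressor Hey1 was read at 10 CPM or more in 6 of 71 control members and 68.7% of the others (15.7 against 589 CPM, 5.53 without the mixed members), and in none of the 7 N1ICD-EGFP members against 37.4% of the others (0 against 315.999 CPM). Nrarp, a feedback inhibitor of Notch, was at 2.26 against 31.7 CPM in the control and 0 against 90.1 CPM in the N1ICD-EGFP plate. Hes1 was nearer to equal in the control plate, with medians of 70.3 and 69.4 CPM and sums of 114.2 and 218.01. In the N1ICD-EGFP plate the other cells held 630.3 CPM of Hes1 and members 117.4 CPM. The 2 targets that were higher in control members were Cdkn1a, a cell cycle inhibitor with many other inputs (66.99 against 27.6 CPM), and Hes6, which counters Hes1 (54.4 against 25.2 CPM), both under 2 times in some settings.

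**Figure D4:**
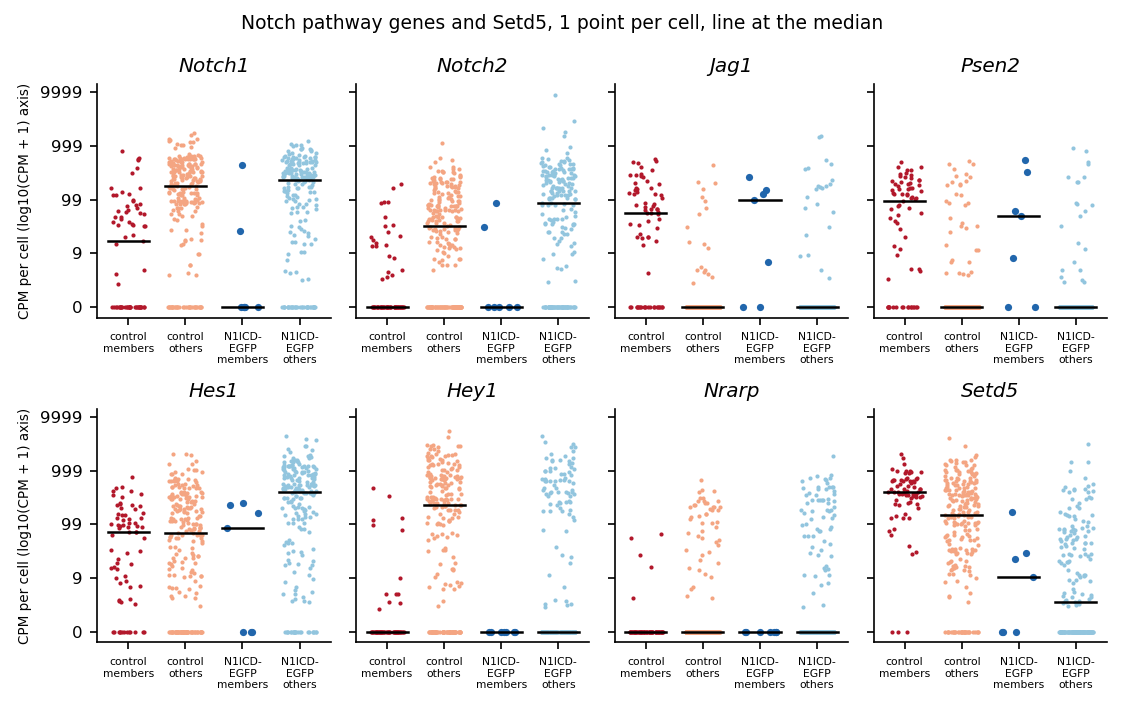
CPM per cell of 7 Notch pathway genes and Setd5 on a log10(CPM + 1) axis, for members and other Krt8-positive cells of both plates, with 1 point per cell and a line at the median. Notch1, Notch2, Hey1 and Nrarp are lower and Jag1 and Psen2 higher in members of both plates, and Setd5 has a median of 403 CPM in control members and 9.54 CPM in N1ICD-EGFP members.

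Among genes of division and stress, S phase and immediate early genes were more often lower than higher in members, and the other lists were mixed. Over all genes the shares were 14.6% higher and 16.6% lower in the control plate and 20.9% higher and 32.8% lower in the N1ICD-EGFP plate. Of 17 S phase genes 8 reached 20 CPM in the control plate, 0 higher and 3 lower (median log2 ratio -0.80), and 10 in the N1ICD-EGFP plate, 1 higher and 5 lower (-0.84). Of 14 G2 and M phase genes 1 reached 20 CPM in the control plate, the kinase Aurka (41.9 against 1.51 CPM, higher in members), and 4 in the N1ICD-EGFP plate, all lower in members, among them Mki67 (0 against 48.7 CPM). Immediate early genes, which cell dissociation is known to switch on, were lower: 10 of 16 in control members with 1 higher (median -1.76), and 8 of 15 with 0 higher in N1ICD-EGFP members (-1.04). Fos had a median of 1744 CPM in control members and 9484 CPM in the others, and Egr1 27.4 and 1328 CPM. The higher gene was the heat shock gene Hspa1b, whose near-identical copy Hspa1a can share its reads and which was under 2 times in well columns 1 to 12. Interferon response genes were divided, with 7 higher and 5 lower of 14 in control members (0.45) and 4 higher and 4 lower of 11 in N1ICD-EGFP members (0.62). The immunity-related GTPase Iigp1 (1068 against 73.5 CPM in the control plate), the deubiquitinase-like Usp18 (94.2 against 7.59) and the immunoproteasome subunit Psmb8 (407 against 142.2) were higher, and Irf7 (5.99 against 44.9) and Oasl2 (15.1 against 74.4) were lower.

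**Figure D5:**
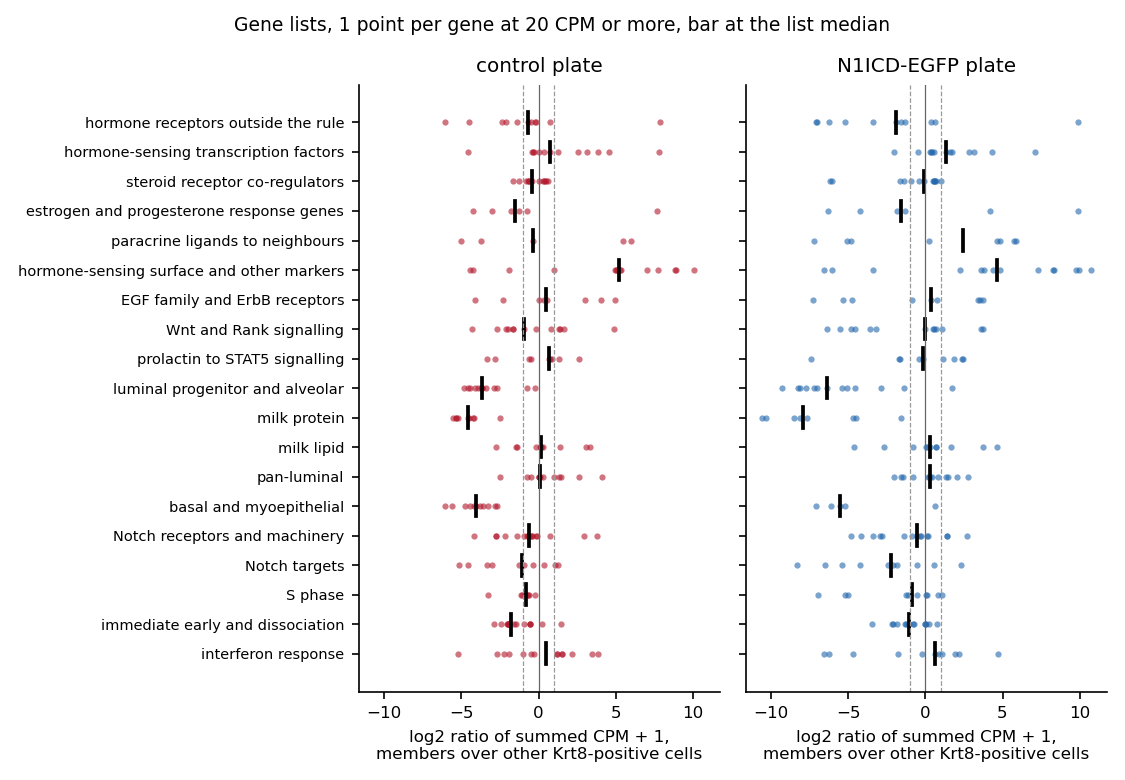
Log2 ratio of summed CPM plus 1, members over other Krt8-positive cells (x axis), for the genes of 19 lists that reached 20 CPM in either group, with 1 point per gene, a bar at the list median and dashed lines at 2 times, for the control plate (left) and the N1ICD-EGFP plate (right). Surface and other markers lie furthest right (5.17 and 4.62), and milk protein genes furthest left (-4.59 and -7.92).

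Between the plates, N1ICD-EGFP members were compared with control members at 8209 genes of 20 CPM or more. At least 2 times higher were 16.7% and at least 2 times lower 25% of them, with a median log2 ratio of -0.04, where the same ratio between the other Krt8-positive cells gave 7.11% and 5.43% of 8430 genes (0.11). Sums over 7 cells rest on few cells, and a gene missed in all 7 reads as far lower. The 2 pairs of groups share no cells, but each carries the plate and the reporter along with the genotype. Of the 7 rule genes none was 2 times higher and 2 were lower in N1ICD-EGFP members, Wnt4 (log2 ratio -1.94) and Esr1 (-1.95), each within 2 times in some settings. Prlr (-0.91), Pgr (-0.67), Foxa1 (-0.08), Cited1 (-0.20) and Areg (0.39) were within 2 times. Without the N1ICD-EGFP cell that held most reads of the gene, Areg was at -1.76 and Pgr at -1.22, both past 2 times lower. The lists gave 3 higher and 6 lower of 14 surface and other markers (median -0.68), with Ly6a (1.84), Prom1 (1.25) and Cryab (1.74, which turned to lower without possible doublets, in well columns 1 to 12 and, at -1.74, without the 1 cell that held 96.5% of its reads) higher and Tph1 (-1.87, 24.8 CPM without 1 cell) and Piezo2 (-2.23) among the lower. Prom1 was within 2 times in some settings. Ly6a differed per cell as well, with a median of 2504 against 300.6 CPM, and 6 of the 7 N1ICD-EGFP members lay above 921 CPM, the third quartile of control members, whose highest cell held 4814 CPM. Its ratio between the other Krt8-positive cells was -0.15.

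Notch targets were also set side by side between the plates. Of 15 genes 7 reached 20 CPM, 1 higher and 2 lower in N1ICD-EGFP members (median log2 ratio 0.04), a share near that of all genes, and between the other Krt8-positive cells 3 of 10 were higher and 0 lower (0.60). Hes1 was at 117.4 CPM in N1ICD-EGFP and 114.2 CPM in control members (0.04), against 630.3 and 218.01 CPM in the others (1.53). Nrarp was at 0 and 2.26 CPM in members and at 90.1 and 31.7 CPM in the others, where its log2 ratio was 1.48. Whether the difference in these ratios exceeds the spread between animals was not tested.

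Immediate early genes were higher in N1ICD-EGFP than in control members, 8 of 16 past 2 times with 3 lower (median 0.98; 9 higher without the mixed control members), where the other cells gave 0 and 0 of 15 (0.15). Fos in the 7 N1ICD-EGFP members fell into 2 groups, with 5 cells between 2949 and 12109 CPM and 2 cells at 5.98 and 7.69 CPM, so the median of 4667 CPM lay above the 1744 of control members while both ranges overlap. Fos and Atf3 changed side when possible doublets were left out, and the log2 ratio of Fos was 0.76 without 1 of the 7 cells. Milk protein and progenitor genes were lower in N1ICD-EGFP members (6 of 7 and 7 of 9), and these ratios rest on the mixed control members: without them 2 of 4 milk protein genes and 1 of 5 progenitor genes were lower (medians -1.84 and -0.34, against -4.86 and -3.45 with them). With 2 or more rule genes the median of progenitor genes was 0.19. Csn1s1 shows this, with 0.360 CPM in N1ICD-EGFP members against 470.2 CPM in all control members and 61.3 CPM in those that were not mixed.

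The 8 highest genes by the naming rule were BC064078, B4galt5, Zfp7, Lpin3, Atp8b1, Stk38l, Rfc3 and Ly6d, with log2 ratios from 2.60 (Ly6d) to 4.83 (BC064078). Ly6d, a surface protein, was read at 45.5 to 11903 CPM in the 7 N1ICD-EGFP members (median 457, and a single cell held 64.7% of the reads) and at a median of 176.3 CPM in control members, whose range of 0 to 7513 CPM overlaps with it. The 8 lowest were Csn1s1, Csn3, Olfm4, Ppa1, Thsd4, Ftsj3, Timp2 and Ccdc68. Olfm4 was at 6.48 CPM in N1ICD-EGFP members, 1 of 7 cells at 10 CPM or more, against 1329 CPM and 41 of 71 in control members. Ppa1, the cytosolic pyrophosphatase, had no read in the 7 N1ICD-EGFP members and was read in 84.5% of control members after thinning (175.7 CPM). With the rule at 2 or more genes the ratios of Ppa1 and Thsd4 were within 2 times and that of Timp2 turned to higher. Setd5, a gene of a chromatin protein chosen after its values were seen, was at 30.6 (11.9 without 1 cell) against 489 CPM in members (-3.95) and at 75.4 against 298.6 CPM in the others (-1.97), lower in both kinds of cell of the N1ICD-EGFP plate.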

How the data were processed

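Single cells of both plates were measured as read counts per gene and well, deposited by the authors as 1 table for each plate. Reads came from a HiSeq 2500 per the labels and were aligned with STAR to mm10 per the submitters' processing notes. No counting tool, annotation, strand setting or version is given in the sources used here, so overlapping and antisense genes cannot be told apart. Of 24490 rows, 492 repeated a gene name and were summed, which left 23997 genes and the eGFP row, which was kept out of totals. Cells with 50000 reads and 1000 genes or more were kept, 334 control and 283 N1ICD-EGFP cells (medians of 241888 control and 348469 N1ICD-EGFP reads). The other Krt8-positive cells numbered 230 and 203. No doublet caller was run, and a cutoff on gene numbers was tried as an alternative.

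Reads were summed over the cells of a group and scaled to CPM. Genes of 20 CPM or more in either group entered a comparison and were called at 2 times, on log2 ratios with a pseudocount of 1 CPM. Detection shares marked as thinned come from 50000 reads drawn per cell, which no kept cell was too shallow for. Intervals are 95% Clopper-Pearson for shares and exact Poisson for sums. Those of folds come from the exact binomial interval of the split of reads between both groups. Ratios of summed CPM were checked on counts simulated from control cells with planted folds, for 71 against 230 cells only. No comparison with 7 member cells was simulated. Besides the genes of 27 lists, the text names the 15 highest and 10 lowest control ratios, the 8 highest and 6 lowest N1ICD-EGFP ratios and the 8 highest and lowest between members, among genes that 50% or more of the higher group's cells held after thinning. Predicted and ribosomal protein genes were left out. The members and lists were chosen with earlier results of these data known. The alternatives tried were other cell filters, thresholds of the rule, each rule gene left out, thinning before the rule, comparison groups, scalings, pseudocounts, gene thresholds and well columns 1 to 12 or 13 to 24 alone, and, added after the data were seen, members without the mixed cells and each N1ICD-EGFP member left out in turn. Promoters and gene positions came from RefSeq GRCm38.p6. Python 3.11.15, numpy 2.4.6, pandas 2.3.3, scipy 1.17.1 and matplotlib 3.10.9 were used.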

Additional observations from a re-analysis of the deposited data

Results flagged for a closer look

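Reads of the reporter row eGFP, which no comparison of genes used, were found above the control level in the N1ICD-EGFP plate. Among its other Krt8-positive cells 87 (42.9%) held a read and 76 held 5 or more, whereas no control cell held more than 2. None of the 7 N1ICD-EGFP members held one.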

How the results depend on the processing

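The control share of 21.3% was 26.6% with 2 or more rule genes and 11.9% without possible doublets, and the N1ICD-EGFP share was 0.719% in well columns 13 to 24. The counts of lower genes were 840 (control plate), 1568 (N1ICD-EGFP plate) and 945 (between members) at 50 CPM or more, and 2200, 4478 and 3597 at 5 CPM or more, since fewer or more genes were then tested. With 2 or more rule genes the N1ICD-EGFP plate gave 1894 lower genes. In that plate the log2 ratio of Spdef was -1.91 and that of Fzd4 -2.58 with 4 or more rule genes, with the rule at 50 CPM and after thinning before the rule, and without possible doublets Tgfa was at -2.92, Nrg4 at -1.83 and Cdkn1a at -0.21. With 2 or more rule genes Oasl2 was at 1.03, and the medians of estrogen and progesterone response genes and of paracrine ligands were 0.55 and -0.036, the former 0.0075 as a mean of per-cell CPM. Between members, 2 or more rule genes gave 2.59 for Timp2 and a median of 0.19 for progenitor genes. Without possible doublets Fos was at -0.42, Atf3 at -0.034 and Cryab at -2.12, and Cryab was at -0.42 in well columns 1 to 12. The causes of these changes of sign were not tested. Of the named genes' ratios past 2 times, 99.1% (control plate), 92.4% (N1ICD-EGFP plate) and 22 of 27 (between members) kept their direction in every alternative run, and 89.6%, 68.6% and 17 of 27 stayed past 2 times. The runs without 1 N1ICD-EGFP member do not apply to the control plate, so its shares are over fewer settings of that kind. Leaving out each N1ICD-EGFP member in turn gave -1.57 to 3.17 for Spdef and -1.98 to 4.09 for Fzd4 in that plate and, between members, -1.74 to 2.03 for Cryab and a median of -0.12 to 1.38 for estrogen and progesterone response genes. Well columns 13 to 24 hold 1 N1ICD-EGFP member and gave no ratio there. No paired analysis was possible because replicate numbers only name cells in accession order and no test was made.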

Other observations

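Some genes that were far apart between the plates in the other Krt8-positive cells lay closer together in hormone-sensing cells. They were chosen after their values were seen and are given as values. Lect1, which encodes chondromodulin, was at 618 CPM in other N1ICD-EGFP cells (36.9% at 10 CPM or more) and 1.15 CPM in other control cells, but at 0.360 CPM in N1ICD-EGFP members and 0 in control members. Alox15, a lipoxygenase, was at 1436 against 63.3 CPM in the others and at 17.7 against 42.9 CPM in members. Slc5a7, the choline transporter of nerve endings, was at 0.0714 against 146.2 CPM in the others, with 33.04% of those control cells at 10 CPM or more, and at 0 against 8.66 CPM in members. Gadd45g, a stress-induced growth regulator, was higher in the N1ICD-EGFP plate in both kinds of cell (174.1 against 25.02 CPM in the others and 621 against 234.8 CPM in members), and it was higher in members than in others of each plate. A difference of such ratios between members and others was not tested.

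Members differed from the other luminal cells in genes outside the main groups too. Xbp1, a factor of secretory capacity, had a median of 996 CPM in control and 1606 CPM in N1ICD-EGFP members and of 371.1 and 68.7 CPM in the others. Muc1, a mucin of the luminal surface, was 5.72-fold lower in control members (171.4 against 980.3 CPM) and 2.98-fold lower in N1ICD-EGFP members. Cytip, a regulator of cell adhesion best known from leukocytes, was read at 10 CPM or more in 8 of 71 control members and 62.6% of the others, and in 0 of 7 N1ICD-EGFP members and 55.7% of the others.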
